A study of Mus musculus with 20 samples.

Results

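Cajal-Retzius cells were examined here through 6 genes that mark them, *Reln*, *Trp73*, *Lhx1*, *Lhx5*, *Ebf3* and *Nhlh2*, chosen by name among the 47729 genes of the count files. All 6 were present in the files, and 28659 of all genes were counted somewhere. Each of 10 C57Bl/6J mice at P7 (postnatal day 7), 5 of them WT and 5 Ube3aOE, gave 1 library of each tissue, hippocampus and cortex, 20 in all, with WT mice numbered 1 to 5 and Ube3aOE mice 6 to 10. Ube3aOE mice carry additional copies of *Ube3a* on a floxed bacterial artificial chromosome transgene with its flanking sequence, the labels name no Cre, and WT mice carry no transgene. The labels do not name the transgenic line, and 2 lines are stated to carry the insertion within chromosome 3, the chromosome of *Nhlh2*. The authors describe the sequenced model as one with a 2-copy insertion and state that their later experiments focused on line E, 1 of these lines. Replicates were separate mice.

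Cajal-Retzius cells are early-born neurons of the outermost layer of cortex and hippocampus. They secrete reelin, a large glycoprotein that binds the receptors VLDLR and ApoER2 (gene *Lrp8*) on migrating neurons and acts through the adaptor *Dab1*. In the mouse most of them die in the neocortex during the first postnatal weeks, whereas many persist in the hippocampus, and reelin is also made by GABAergic interneurons. The tissue comparison addresses this contrast at P7, and the genotype comparison addresses whether additional *Ube3a* changed the genes.

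The members fall into a secreted ligand and 5 transcription factors. *Reln* encodes reelin and lies at chr5:21884454-22344702 of GRCm38. *Trp73* (p73, of the p53 family) lies at chr4:154056253-154140208, *Lhx1* at chr11:84518284-84525535 and *Lhx5* at chr5:120431699-120441223 (both LIM-homeodomain factors). *Ebf3* (of the early B cell factor family) lies at chr7:137193673-137314445, and *Nhlh2* (a basic helix-loop-helix factor) at chr3:102010076-102015492. All 6 are protein-coding, and the counts are sums over the exons of all their transcripts. *Trp73* has 2 starts in RefSeq, 42702 bases apart, which give proteins with and without the N-terminal transactivation domain. Of its 7 transcripts in GENCODE M21, 4 begin within 100 bases of the inner start and 0 within 100 bases of the outer. The protein-coding transcript Trp73-204 begins at 154140208, upstream of the outer RefSeq start at 154139875 and beyond that limit. The counts per gene cannot separate the starts.

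The upstream sequences of 3 members are shown because *Nhlh2* and *Reln* had the largest and the smallest tissue difference among the members below and *Trp73* has more than 1 start. They were taken from RefSeq (GRCm38.p6), whose table held 5 of the 6 members, and run 5′ to 3′ in lower case with every CG dinucleotide in capitals. Shown are *Nhlh2* (plus strand, chr3:102009895-102010075, 181 bases that end where the annotated gene begins), the inner start of *Trp73* (minus strand, chr4:154097174-154097423) and *Reln* (minus strand, chr5:22344706-22344955).
Nhlh2: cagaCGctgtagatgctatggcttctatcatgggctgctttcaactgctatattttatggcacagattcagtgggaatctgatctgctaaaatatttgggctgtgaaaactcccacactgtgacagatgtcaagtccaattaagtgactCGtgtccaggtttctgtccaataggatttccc
Trp73 inner start: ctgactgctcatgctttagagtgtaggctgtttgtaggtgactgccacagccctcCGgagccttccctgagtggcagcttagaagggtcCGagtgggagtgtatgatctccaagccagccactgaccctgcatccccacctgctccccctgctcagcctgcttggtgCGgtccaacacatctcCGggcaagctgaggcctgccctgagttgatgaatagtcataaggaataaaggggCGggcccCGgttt
Reln: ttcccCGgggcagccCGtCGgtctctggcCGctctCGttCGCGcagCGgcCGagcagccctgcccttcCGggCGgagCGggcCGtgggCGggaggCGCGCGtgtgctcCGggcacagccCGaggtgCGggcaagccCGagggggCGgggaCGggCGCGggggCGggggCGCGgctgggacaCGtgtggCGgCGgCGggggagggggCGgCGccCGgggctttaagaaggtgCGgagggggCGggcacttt
The motif counted was CG, which reads the same on both strands. In the 250 bases before the RefSeq start there were 2 CG dinucleotides for *Nhlh2*, 6 for the inner start of *Trp73* and 37 for *Reln*, against a median of 6 over 32851 promoters of that length, 92.1% of which held at least 1. As few as in *Nhlh2* were found in 29.0% of them and as few as in *Reln* in 98.1%. *Lhx1* had 26 and *Ebf3* 43, so members that differed between the tissues ranged from 2 to 43.

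Total counts on genes were 14191093 to 16752326 per library. The hippocampus and cortex libraries matched their labels by marker genes written as lists. Of 5 hippocampal markers 5 were higher in hippocampus, among them *Prox1* (fold 9.28, adjusted P = 1.26e-09 from edgeR). Of 5 neocortical markers 3 were lower there, while 1 was higher. Several libraries stood apart. *Tcf7l2*, a thalamic transcription factor, was at 226 CPM in hippocampus of mouse 4, 270.2 CPM in mouse 7, 46.1 CPM in mouse 8 and 564 CPM in mouse 10, against 2.83 to 6.17 CPM in the other hippocampus libraries. In hippocampus of mouse 2 the neocortical markers summed to 546 CPM, against 154 to 301 CPM in the rest, and hippocampus of mouse 9 held the striatal gene *Ppp1r1b* at 218 CPM, against 9.82 to 16.5 CPM. In cortex of mice 8 and 9 the summed level of the hippocampal markers was 76.8 and 78.2 CPM, against 26.7 to 54.5 CPM in the other cortex libraries. Values are therefore also given without these libraries, settings chosen after the data were seen. In 2 WT mice the Y-linked counts went against the labelled sex, which entered no fit other than an alternative with sex as a covariate.

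The 5 transcription factors were several-fold higher in hippocampus than in cortex, whereas *Reln* was not. Of 15661 genes tested, 25.3% were higher in hippocampus at an adjusted P value under 0.05 and 25.6% were higher in cortex. Of the 6 members, 5 were higher in hippocampus, 0 were higher in cortex, and 1, *Reln*, was not called. Their median log2 difference was 1.97, against -0.01 over all genes tested. The members and the lists below were chosen with earlier results of these data known, so their counts beside the shares of all genes are descriptions only. An unadjusted P value under 0.05 from edgeR was reached by 56.3% of all genes tested. The share of all genes whose tissues do not overlap is not given here, so a lack of overlap below is a description only. In bulk tissue, fewer cells of a type and less RNA per cell cannot be told apart.

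**Figure D1:**
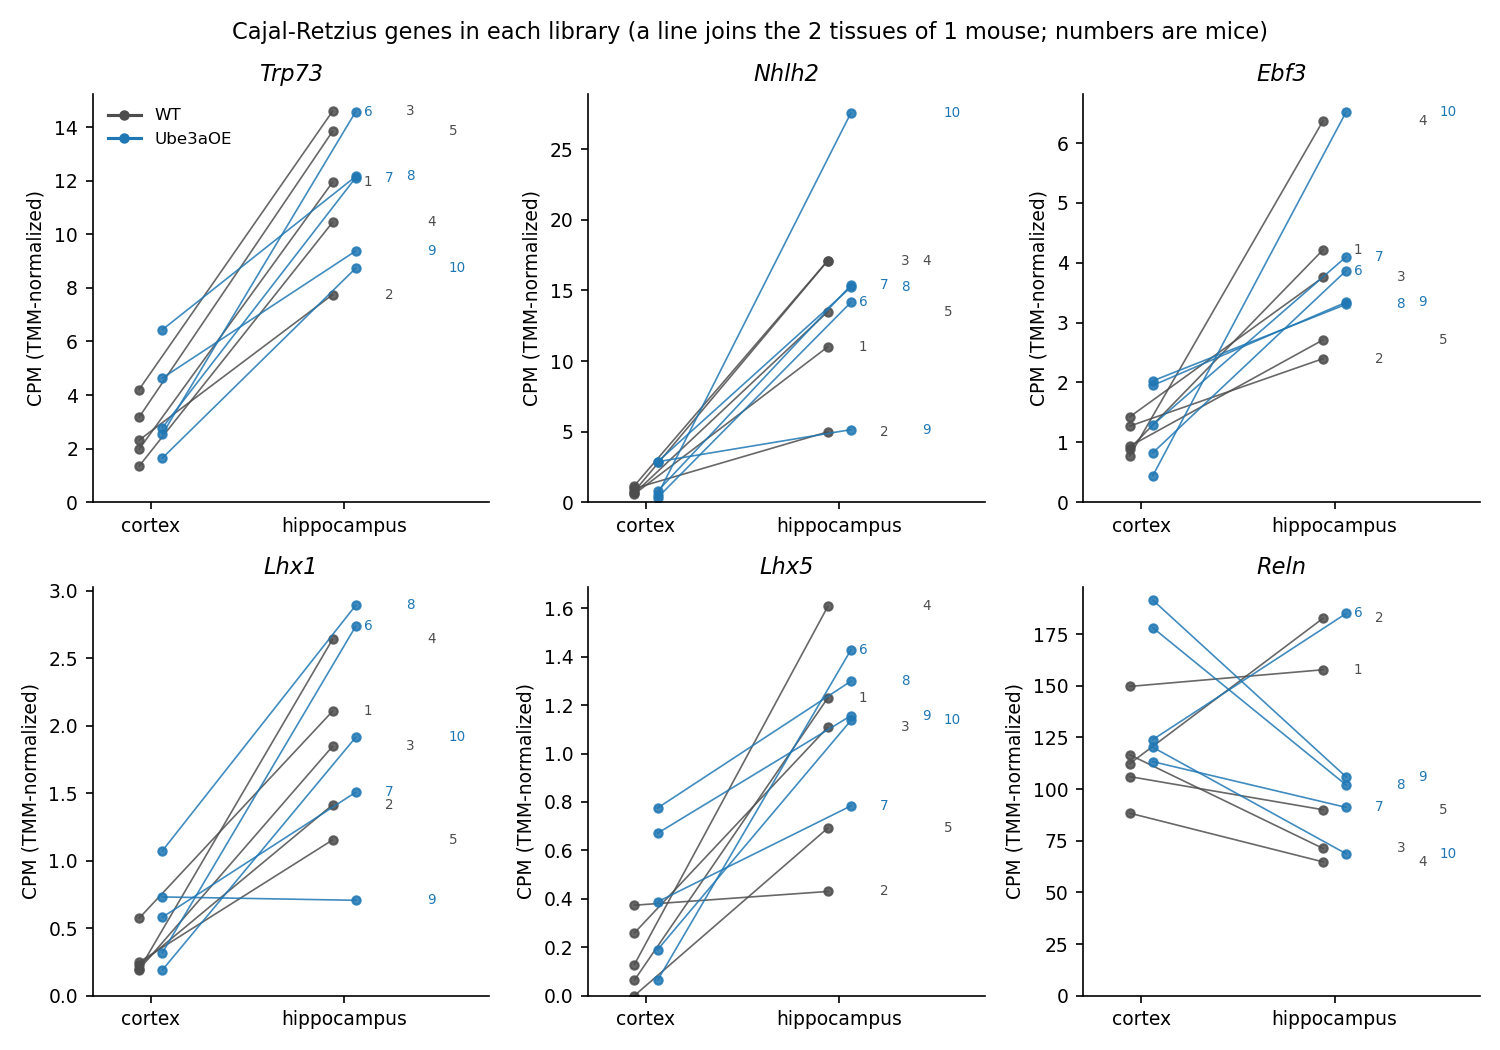
CPM (vertical axis, TMM-normalized, from 0) of the 6 members in the cortex and hippocampus library of each mouse. A point is 1 library, a line joins the tissues of 1 mouse, grey is WT, blue is Ube3aOE, and the staggered numbers at the height of the hippocampus points are mouse numbers. *Trp73*, *Nhlh2* and *Ebf3* are higher in hippocampus in all 10 mice with no overlap of the tissues (share over all genes not given), and *Reln* in 3 of 10. Mice 8 and 9 are the highest cortex libraries for all 6 genes.

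*Trp73*, which is needed for the survival of Cajal-Retzius cells, separated the tissues in every mouse. In WT mice 1 to 5 its level in hippocampus was 11.9, 7.75, 14.6, 10.4 and 13.8 CPM (TMM-normalized CPM, which scales counts to the reads on genes), and in cortex it was 1.98, 2.32, 4.21, 1.35 and 3.17 CPM. In Ube3aOE mice 6 to 10 it was 14.6, 12.1, 12.2, 9.38 and 8.74 CPM in hippocampus and 2.54, 2.78, 6.44, 4.63 and 1.64 CPM in cortex. The lowest hippocampus library, of mouse 2, lay above the highest cortex library, of mouse 8. The log2 difference, hippocampus over cortex, was 1.91 (standard error 0.22, 95% confidence interval 1.45 to 2.36, adjusted P = 6.56e-07 from edgeR), and the median ratio within a mouse was 4.37.

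*Nhlh2* showed the largest tissue difference among the 6 members. Its hippocampus levels were 11.0, 4.98, 17.1, 17.1 and 13.5 CPM in WT mice 1 to 5 and 14.2, 15.4, 15.2, 5.14 and 27.6 CPM in Ube3aOE mice 6 to 10. In cortex the levels were 0.574, 0.971, 1.16, 0.769 and 0.622 CPM in WT mice and 0.317, 0.775, 2.86, 2.87 and 0.506 CPM in Ube3aOE mice. The tissues did not overlap, and the lowest hippocampus libraries were those of mice 2 and 9, the highest cortex libraries those of mice 8 and 9. The ratio within a mouse had a median of 19.5 and was lowest, at 1.79, in mouse 9. The log2 difference was 3.67 (standard error 0.38, interval 2.87 to 4.47, adjusted P = 3.62e-07 from edgeR). It was 3.27 without the 4 hippocampus libraries with *Tcf7l2* over 40 CPM, 3.89 without hippocampus of mice 2 and 9, and 4.40 without cortex of mice 8 and 9.

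*Ebf3* also differed in every mouse. It was at 4.22, 2.40, 3.76, 6.37 and 2.71 CPM in hippocampus of WT mice 1 to 5 and at 3.87, 4.10, 3.31, 3.34 and 6.52 CPM in that of Ube3aOE mice 6 to 10. In cortex it was at 0.892, 1.27, 1.42, 0.769 and 0.933 CPM in WT mice and at 0.825, 1.29, 2.03, 1.95 and 0.443 CPM in Ube3aOE mice. The tissues did not overlap, and mice 4 and 10 were the highest hippocampus libraries. The log2 difference was 1.78 (standard error 0.24, interval 1.29 to 2.27, adjusted P = 2.54e-06 from edgeR). In mice 4 and 10 the habenular factor *Pou4f1* was at 1.95 and 12.0 CPM in hippocampus, against at most 0.173 CPM in the other hippocampus libraries, and its part in the level of *Ebf3* and *Nhlh2* was not tested. Without the 4 libraries with high *Tcf7l2*, which include mice 4 and 10, the difference of *Ebf3* was 1.54.

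*Lhx1* and *Lhx5* rested on few reads. *Lhx1* had 11 to 49 counts per library in hippocampus and 3 to 18 in cortex. *Lhx5* had 7 to 28 in hippocampus and 0 to 13 in cortex. Of the 120 values of the 6 members in the 20 libraries, 1 was 0, that of *Lhx5* in cortex of WT mouse 5, where a count of 0 allows a level of up to 0.187 CPM (3 counts, counting error only). *Lhx1* was higher in hippocampus in 9 of 10 mice, with mouse 9 the exception (0.707 CPM in hippocampus and 0.732 CPM in cortex), and *Lhx5* in 10 of 10. The tissues overlapped for both genes. The log2 difference was 2.19 for *Lhx1* (standard error 0.30, interval 1.56 to 2.81, adjusted P = 3.80e-06 from edgeR) and 2.03 for *Lhx5* (standard error 0.36, interval 1.28 to 2.79, adjusted P = 8.08e-05). An antisense gene that overlaps exons of *Lhx5*, *Gm27199*, had 0 to 11 counts. The labels name stranded libraries, but the strand setting of the counting is not given in the sources used here. Antisense genes over exons of *Reln* and *Trp73* had at most 2 counts. *Lhx1os*, a noncoding gene chosen after its values were seen, lies 125 bases from the start of *Lhx1* on the opposite strand and was higher in hippocampus in 10 of 10 mice.

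*Reln* did not follow the transcription factors. In hippocampus it was at 158, 183, 71.3, 64.8 and 90.0 CPM in WT mice 1 to 5 and at 185, 91.1, 102, 106 and 68.7 CPM in Ube3aOE mice 6 to 10. In cortex it was at 149.7, 112, 117, 88.3 and 106 CPM in WT mice and at 124, 113, 178, 191 and 120.2 CPM in Ube3aOE mice. Mice 1, 2 and 6 formed an upper set in hippocampus, the tissues overlapped, and 3 of 10 mice had more *Reln* in hippocampus. The log2 difference was -0.21 (standard error 0.21, interval -0.65 to 0.24, adjusted P = 0.437 from edgeR). The interval thus left room for a decrease beyond 0.5, and the value was 0.07 without the 4 hippocampus libraries with high *Tcf7l2*. The coefficient of variation of *Reln* across the 10 mice was 41.3% in hippocampus and 25.2% in cortex, whereas that of *Trp73* was 21% in hippocampus and 50.6% in cortex.

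Per transcript length *Reln* was the highest member in both tissues, and *Nhlh2* and *Trp73* exchanged places between them. In hippocampus *Reln* was at 9.56 ± 3.95 FPKM (CPM per kilobase of the longest annotated transcript, mean ± SD, n = 10 mice). *Nhlh2* followed at 3.58 ± 1.64 FPKM, *Trp73* at 2.29 ± 0.481 FPKM, *Ebf3* at 0.813 ± 0.277 FPKM, *Lhx1* at 0.492 ± 0.187 FPKM and *Lhx5* at 0.404 ± 0.132 FPKM. Of these neighbours, the ranges of mean ± SD overlapped for *Nhlh2* and *Trp73* and for *Lhx1* and *Lhx5*, and also for *Ebf3* and *Lhx1*. In cortex *Reln* was at 11.1 ± 2.81 FPKM (n = 10 mice), *Trp73* at 0.616 ± 0.312 FPKM, *Nhlh2* at 0.290 ± 0.238 FPKM, *Ebf3* at 0.237 ± 0.103 FPKM, *Lhx1* at 0.112 ± 0.0778 FPKM and *Lhx5* at 0.108 ± 0.0976 FPKM. There these ranges overlapped between each of the 5 factors and the next, all far below *Reln*. With the summed length of all exons in place of the longest transcript, *Reln* was at 4.71 and *Ebf3* at 0.440 FPKM in hippocampus, and at 5.48 and 0.128 FPKM in cortex, which placed *Ebf3* below *Lhx1* (0.465 FPKM) in hippocampus.

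Other genes of Cajal-Retzius cells pointed the same way as the factors or were not called. Of 9 such genes, a list chosen with earlier results of these data known, 6 were higher in hippocampus and 0 lower, against 25.3% of all genes tested higher. Their median log2 difference was 0.97. The count was 5 without the libraries with high *Tcf7l2* and 5 without hippocampus of mice 2 and 9. *Nhlh1*, the closest relative of *Nhlh2*, was at 1.54 to 7.70 CPM in hippocampus and 0.0747 to 0.596 CPM in cortex, and its log2 difference was 3.90 (standard error 0.34, adjusted P = 2.23e-08 from edgeR). *Calb2*, which encodes the calcium-binding protein calretinin, differed by 1.84, *Cxcr4*, a chemokine receptor that holds the cells at the pial surface, by 1.49, *Thsd7b* by 1.16, *Ebf1* by 0.97 and *Ndnf* by 0.72 on the log2 scale. In hippocampus of mice 4, 9 and 10 *Ebf1* was at 7.41, 16.6 and 12.8 CPM. In the other hippocampus libraries it was at 1.72 to 4.76 CPM, inside the cortex range of 1.27 to 5.18 CPM. *Ebf2* (0.46), *Cacna2d2* (-0.05) and *Car10* (-0.06) were not called. *Calb2* and *Ndnf* are also expressed by interneurons, so the list is not specific to 1 cell type.

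The relatives of the factors moved with the same sign where they were called. Of 12 family members, 9 passed the filter on low counts. Of these, 6 were higher in hippocampus, against 25.3% of all genes tested, and 0 lower, with a median log2 difference of 0.46. This list shares *Ebf1*, *Ebf2* and *Nhlh1* with the list above, so the 2 counts are not independent. *Lhx9*, which is also known from thalamic neurons, differed most (5.53, standard error 0.60, adjusted P = 9.06e-07 from edgeR). It was at 54.5, 64.8 and 120.4 CPM in hippocampus of mice 4, 7 and 10, the libraries highest in *Tcf7l2*, and at 15.4 to 33.9 CPM in the other hippocampus libraries. *Trp63*, the nearest relative of *Trp73*, was at 0.738 to 2.24 CPM in hippocampus and 0.124 to 0.537 CPM in cortex (log2 difference 2.30, standard error 0.28, adjusted P = 7.20e-07). *Ebf1* and *Nhlh1* were given above, and *Trp53* (0.34) and *Ebf4* (0.29) were also called. *Lhx2* (0.07), *Lhx6* (-0.18) and *Ebf2* were not, and *Lhx3*, *Lhx4* and *Lhx8* were not tested. Without the libraries with high *Tcf7l2* the count was 4.

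The genes that receive and process reelin differed in both directions, as did all genes tested (25.3% higher and 25.6% lower in hippocampus). Of the receptors and adaptor, *Vldlr* was lower in hippocampus by 0.51 on the log2 scale (82.0 against 117 CPM on average, adjusted P = 1.78e-05 from edgeR), *Lrp8* differed by -0.12 and was called lower, and *Dab1* (0.03) was not called. Of 10 genes of signal transduction downstream of *Dab1*, 4 were higher and 2 lower, with a median of 0.03. The largest of these were *Crkl* (0.50, an adaptor), *Cul5* (0.23, a ubiquitin ligase scaffold that limits *Dab1*), *Socs7* (-0.14, its substrate adaptor) and *Pafah1b1* (-0.12, the LIS1 gene). Without the libraries with high *Tcf7l2*, 2 were higher. Of 4 proteases that cut reelin, *Adamts4* (0.95) was higher, *Adamts3* (-0.35) was lower, and *Adamts2* (0.37) and *Adamts5* (-0.40) were not called. *Adamts4* was at 9.36, 15.9 and 20.0 CPM in hippocampus of mice 4, 7 and 10, the libraries highest in *Tcf7l2*, against 4.73 to 6.55 CPM in the other hippocampus libraries and 3.52 to 5.19 CPM in cortex. With the mouse as a block, 2 were higher and 2 lower. Without mouse 8, 2 proteases were higher, and without mouse 2 or 9, 2 were lower. Without mouse 1, 4 or 9, 1 gene of signal transduction was lower.

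**Figure D2:**
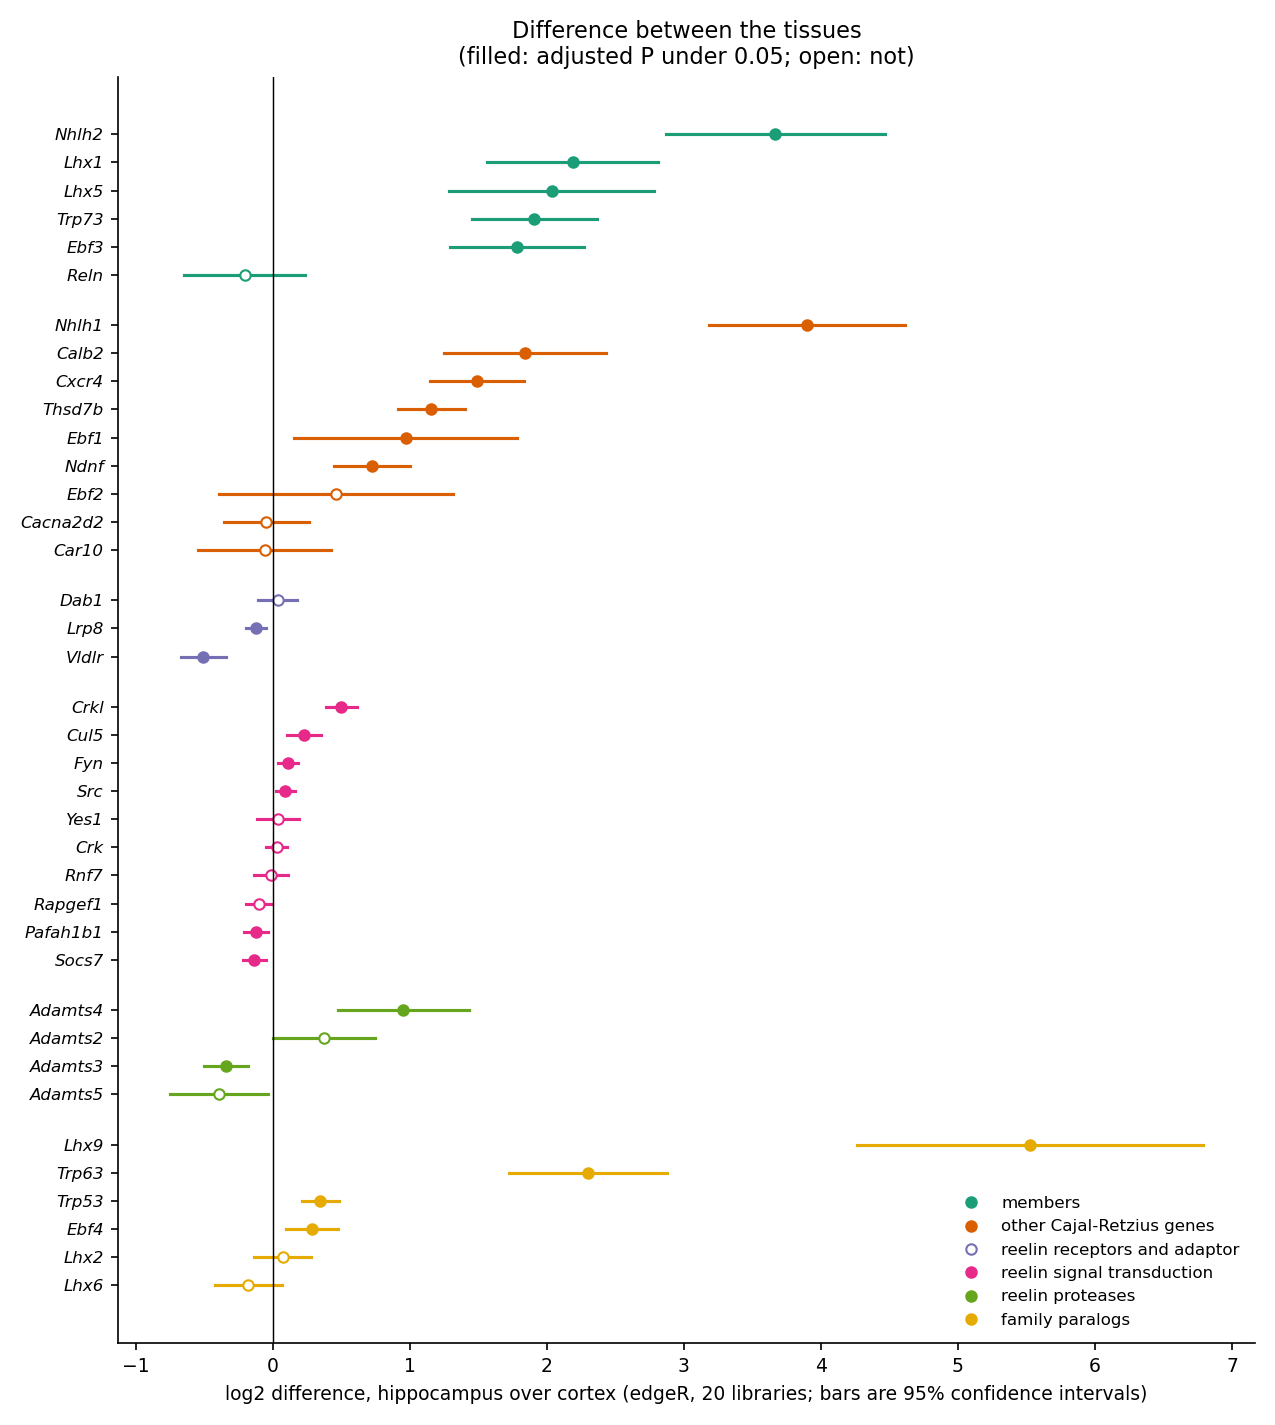
Log2 difference, hippocampus over cortex (horizontal axis), of the 6 members and of the related lists that passed the filter on low counts, fitted by edgeR over 20 libraries. Points are estimates, bars are 95% confidence intervals, filled points had an adjusted P value under 0.05, and genes of 2 lists are drawn in the first. The 5 transcription factors lie between 1.78 and 3.67, *Reln* lies at -0.21, and of the genes that receive reelin *Vldlr* lies at -0.51, *Lrp8* at -0.12 and *Dab1* at 0.03.

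Genes of GABAergic interneurons, the other source of *Reln*, were called in both directions. Of 10 interneuron genes 4 were higher in hippocampus and 1 was lower, with a median log2 difference of 0.23. Of all genes tested, 25.3% were higher in hippocampus and 25.6% were lower. With the mouse as a block 2 were lower, without the libraries with high *Tcf7l2* 0 were lower, without mouse 4, 6 or 7 0 were lower, and without mouse 9 3 were lower. *Sst*, the somatostatin gene, differed by 0.42 on the log2 scale. The summed level of the list was 492 to 1181 CPM in hippocampus and 533 to 746 CPM in cortex. The hippocampus ends were mouse 10, highest in *Tcf7l2*, and mouse 9, highest in *Ppp1r1b*, and the other hippocampus libraries were at 657 to 753 CPM. In cortex mice 8 and 9 were at 731 and 746 CPM and the others at 533 to 596 CPM. The share of *Reln* that comes from either cell type cannot be told apart in these libraries.

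The genotype was first checked by *Ube3a*. Its hippocampus levels were 69.4, 76.7, 57.1, 60.1 and 59.8 CPM in WT mice 1 to 5 and 142, 147, 183, 143 and 194 CPM in Ube3aOE mice 6 to 10. In cortex the WT mice were at 58.6, 54.4, 69.9, 60.2 and 62.0 CPM and the Ube3aOE mice at 136, 129.7, 180.5, 129 and 182 CPM. The genotypes did not overlap in either tissue, in the direction of the labels.

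In hippocampus the members were not called different between the genotypes. Of 15220 genes tested there, 0.00657% were called, which was 1 gene, *Ube3a*. Of the 6 members 0 were called by edgeR, 0 by DESeq2, and 0 had an unadjusted P value under 0.05, against 1098 of all genes tested. The genotypes overlapped for each member. The log2 difference, Ube3aOE over WT, was -0.04 for *Reln* (interval -0.87 to 0.79), -0.04 for *Trp73* (-0.43 to 0.35), 0.09 for *Lhx1* (-0.63 to 0.82), 0.19 for *Lhx5* (-0.49 to 0.87), 0.12 for *Ebf3* (-0.47 to 0.70) and 0.28 for *Nhlh2* (-0.68 to 1.24). Adjusted P values from edgeR were 0.864 to 0.979. The interval lay inside the border of 0.5 in both directions for 1 member, *Trp73*, and for the others it reached past 0.5 in at least 1 direction. The largest estimate, that of *Nhlh2*, was -0.03 without Ube3aOE mouse 10, whose hippocampus held the highest *Nhlh2* and *Tcf7l2*.

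In cortex the estimates of the 4 tested members were all above 0 but none was called. Of 14947 genes tested, 0.00669% were called, again 1 gene, *Ube3a*. Of the 4 members tested 0 were called by edgeR, 0 by DESeq2, and 0 had an unadjusted P value under 0.05, against 663 of all genes tested. The log2 difference was 0.35 for *Reln* (interval -0.05 to 0.75), 0.48 for *Trp73* (-0.35 to 1.31), 0.32 for *Ebf3* (-0.45 to 1.09) and 0.86 for *Nhlh2* (-0.39 to 2.1), with adjusted P values of 0.960 to 0.973 from edgeR. *Lhx1* and *Lhx5* did not pass the filter on low counts there. Without the filter their values were 1.00 and 1.37 (unadjusted P = 0.0414 and 0.0456, adjusted P = 0.759 for both from edgeR). In the fit over all 20 libraries their unadjusted P values from edgeR were 0.0659 and 0.0421.

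These cortex estimates depended on 2 libraries. For 6 of 6 members the highest cortex libraries were those of Ube3aOE mice 8 and 9. In the same libraries *Prox1* was at 25.0 and 23.5 CPM, against 10.5 to 14.3 CPM in the other cortex libraries. The summed meningeal markers were at 244 and 141 CPM there, against 44.4 to 119 CPM. The summed interneuron markers, of the other cells that make reelin, were at 731 and 746 CPM there, against 533 to 596 CPM. Without these libraries the log2 difference in cortex was 0.05 for *Reln*, -0.17 for *Trp73*, -0.31 for *Ebf3* and -0.61 for *Nhlh2*, so that 3 of 4 changed sign. Leaving out the highest libraries of 1 genotype lowers the estimate by construction, so these values do not test the difference. The part of hippocampal or meningeal tissue or of interneurons in the levels was not tested.

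**Figure D3:**
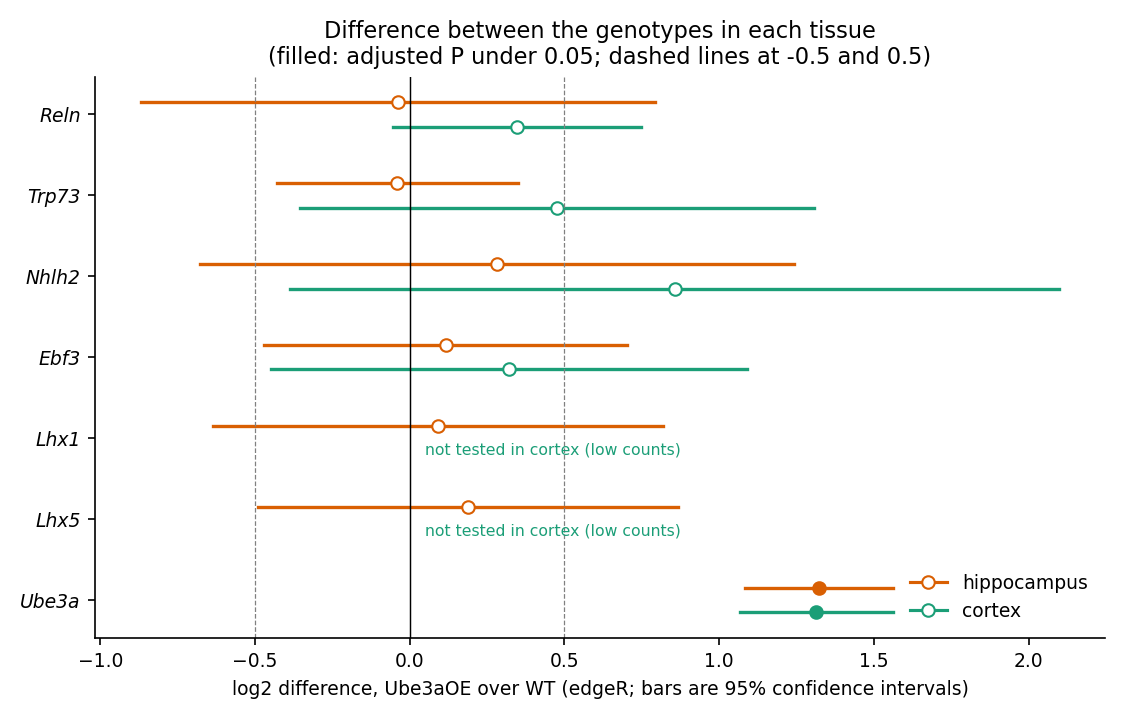
Log2 difference, Ube3aOE over WT (horizontal axis), of the 6 members and *Ube3a* in hippocampus (orange) and cortex (green), fitted by edgeR in the 10 libraries of each tissue. Points are estimates, bars are 95% confidence intervals, filled points had an adjusted P value under 0.05, and dashed lines mark -0.5 and 0.5. *Ube3a* is the one gene drawn with filled points, and the intervals of the members include 0.

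The difference between the genotypes did not differ detectably between the tissues. Of 15661 genes tested for the interaction, 0% were called by edgeR and by DESeq2, and 590 had an unadjusted P value under 0.05. The 6 members had interaction values of -0.20 (*Ebf3*) to -1.18 (*Lhx5*) on the log2 scale, where a negative value is a smaller Ube3aOE over WT difference in hippocampus than in cortex. Adjusted P values were 0.997 to 0.998 from edgeR, and 0 members had an unadjusted P value under 0.05. Without cortex of mice 8 and 9, the values of *Trp73*, *Ebf3* and *Nhlh2* were 0.13, 0.42 and 0.89. Among the related lists, 0 of 9 other Cajal-Retzius genes were called in hippocampus, 0 of 8 tested in cortex, and 0 of 9 in the interaction.

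Relations between members across mice passed the adjusted threshold in cortex for 4 of 15 pairs and in hippocampus for 0 of 15, a difference that was not tested. The share of correlated pairs over all genes is not given here, so these counts are descriptions only and not a trait of the members. Both genotypes were pooled without taking out their means, and the highest cortex libraries of the members were of Ube3aOE mice. Over 30 relations (15 pairs in each tissue, log2 CPM of 10 mice, 100000 permutations, two-sided, adjusted by Benjamini-Hochberg), the 10 pairs without *Reln* in cortex had Pearson's r of 0.560 to 0.851. For *Trp73* and *Ebf3*, r was 0.851 (permutation P = 0.00196, adjusted 0.0229) and Spearman's rho 0.903 (permutation P = 0.000920, adjusted 0.0247). For *Ebf3* and *Nhlh2*, r was 0.847 (permutation P = 0.00142, adjusted 0.0229) and rho 0.879 (P = 0.00165, adjusted 0.0247). For *Lhx5* and *Nhlh2*, r was 0.833 (permutation P = 0.00229, adjusted 0.0229) and rho 0.818 (P = 0.00573, adjusted 0.0573). Without the 2 mice farthest from the median of the first gene, these r were 0.832, 0.876 and 0.844.

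Pearson's r between members in cortex was lower without mice 8 and 9. Without these mice (n = 8, no test), r was 0.702 for *Trp73* and *Ebf3*, 0.660 for *Ebf3* and *Nhlh2* and 0.598 for *Lhx5* and *Nhlh2*, and the 10 pairs without *Reln* ranged from -0.228 to 0.702 with a median of 0.289. *Reln* and *Lhx1* had r of 0.822 in cortex (permutation P = 0.00355, adjusted 0.0266) with rho 0.636 (P = 0.0543, adjusted 0.152). Without the 2 mice farthest from the median, which were mice 8 and 9, r was 0.568. Leaving out the mice at the end of a range tends to lower r, so these values do not test what the relations rest on. In hippocampus 0 of 15 pairs passed the adjusted threshold. There the 10 pairs without *Reln* had r of -0.0793 to 0.692, and the 5 pairs with *Reln* had r of -0.607 to 0.0119. The lowest was that of *Reln* and *Nhlh2* (permutation P = 0.0616, adjusted 0.132), with rho -0.770 (P = 0.0127, adjusted 0.0910).

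**Figure D4:**
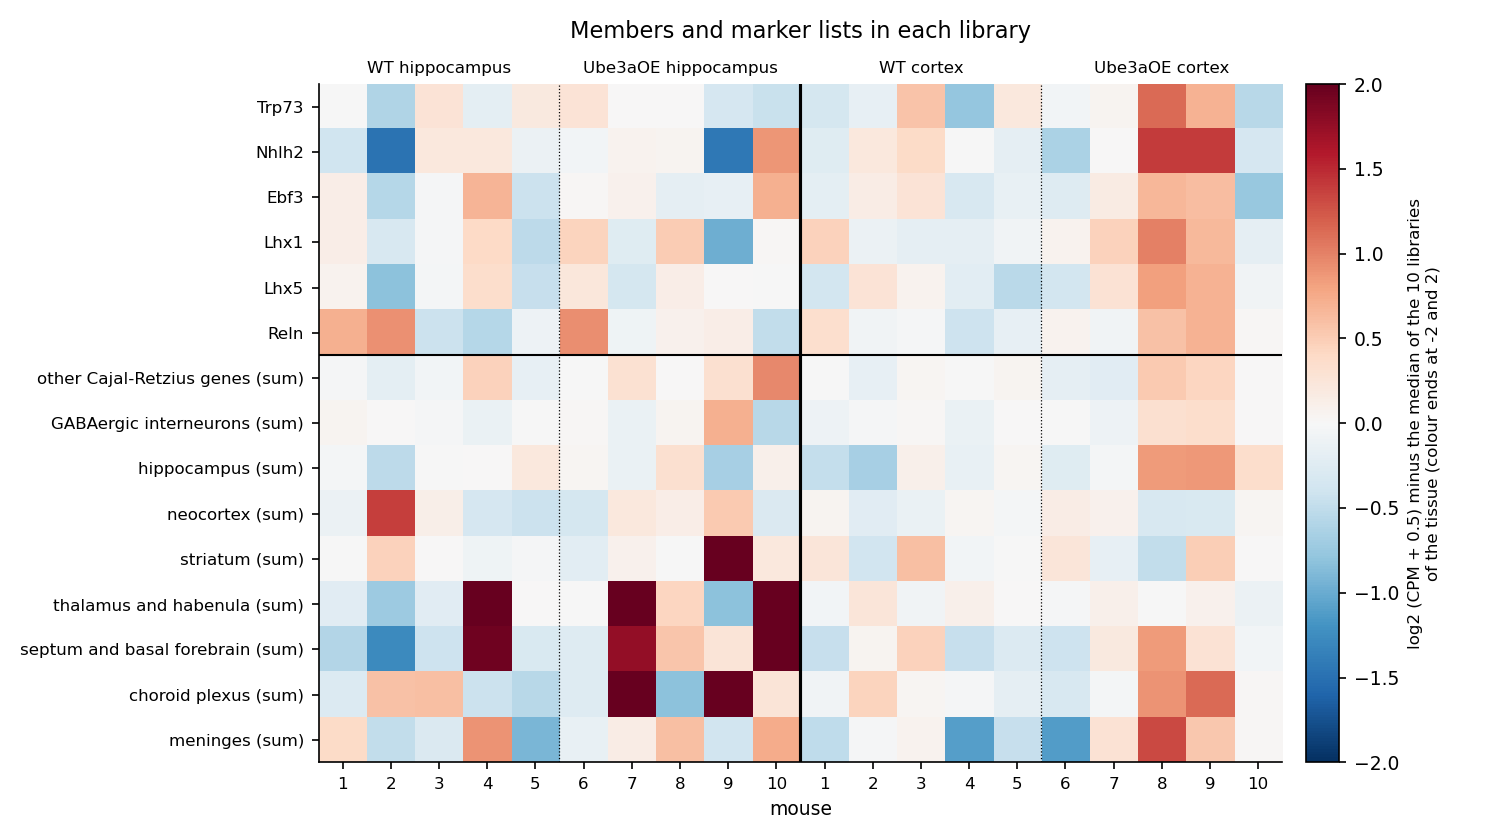
Members and summed marker lists (rows) in the 20 libraries (columns, mouse numbers, hippocampus at the left and cortex at the right, WT before Ube3aOE). Colour is log2 (CPM + 0.5) minus the median of the 10 libraries of the tissue, red above and blue below, and ends at -2 and 2. Mice 8 and 9 are red for all 6 members and for hippocampal markers in cortex, and in hippocampus the high thalamic libraries are those of mice 4, 7 and 10.

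Across the libraries *Reln* and the other members resembled different genes. After the mean of each group was taken out, the log2 CPM of *Reln* over the 20 libraries was most like that of *Dhx9* (Pearson's r 0.936), *Ylpm1* (0.925), *Ryr3* (0.915), *Mllt4* (0.910) and *Nrcam* (0.902) among 15660 genes. The mean of the 5 other members was most like *Fzd1* (0.896), *Epb41l4a* (0.887), *D8Ertd82e* (0.875), *Nid2* (0.875) and *Rcn3* (0.870) among 15656 genes. *Reln* stood at rank 6550 of that order, with r of 0.0808. These values describe likeness over libraries that share their tissue makeup and depth, and the genes were picked as the highest of many.

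In hippocampus the transcription factors were low where *Reln* was high in 1 library, but not in the library with the most *Reln*. WT mouse 2 held the lowest level of 4 of the 6 members among all hippocampus libraries, those of *Trp73*, *Nhlh2*, *Ebf3* and *Lhx5*, and among WT hippocampus libraries the highest *Reln*. In the same library *Prox1* was at 67.5 CPM, against 75.0 to 184 CPM in the others, beside the high neocortical sum given above. *Reln* was at 183 CPM there and at 112 CPM in cortex of the same mouse. Hippocampus of Ube3aOE mouse 6 held more *Reln* (185 CPM), with *Trp73* at 14.6, *Nhlh2* at 14.2, *Ebf3* at 3.87 and *Lhx5* at 1.43 CPM. The neocortical markers of that library summed to 163 CPM. The part of neocortical tissue in these levels was not tested.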

How the data were processed

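RNA of hippocampus and cortex of 10 mice at P7 was sequenced in 20 libraries. Per the labels, the authors prepared stranded mRNA libraries, and their processing notes name HISAT2 2.1.0, HTSeq 0.11.2 and GRCm38. The annotation and the strand setting are not given in the sources used here. The authors deposited whole-number counts of reads per gene without normalization. The 5 closing lines of each file, which name no gene, held 18.8% to 30.3% of its summed counts and were left out. No pair of libraries held identical counts. Identifiers were matched to GENCODE M21 (47310 of 47729).

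Groups and mouse numbers were taken from the labels. Counts were analysed with edgeR 4.0.16 in R 4.3.3 (TMM, filterByExpr, robust quasi-likelihood F test, Benjamini-Hochberg over all genes tested, adjusted P value under 0.05), tested on simulated data. Tissues and the interaction were fitted over 20 libraries, genotypes within the 10 of each tissue. A prior count of 2 entered log2 CPM for the relations. The numbers pair the tissues of a mouse: after the group means were taken out, deviations correlated with a median of 0.215 (-0.0367 to 0.248, over 0.1 in 9 of 10 mice). Alternatives were DESeq2 1.42.0, no filter, labelled sex, the mouse as a block, 20 libraries in 1 fit, other normalizations and each mouse left out. Genes named were the members, *Ube3a*, the related lists (of signal transduction the 4 with the largest difference), the highest or near-absent genes of marker lists, and the 5 most like the members. The members and lists were chosen with earlier results of these data known.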

Additional observations from a re-analysis of the deposited data

Results flagged for a closer look

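Within groups of 5 libraries, a library was listed when its gap to the next exceeded 0.71 of the group's range. Of 68 combinations of measure and group 12 met this, where chance gives about 3.4 (1 in 20). Among the members, *Lhx1* in cortex of WT mouse 1 was at 0.574 CPM, above the next WT library at 0.249 CPM, on 9 counts. *Ebf3* in hippocampus of Ube3aOE mouse 10 was at 6.52 CPM, above 4.10 CPM. The summed level of the other Cajal-Retzius genes was highest in hippocampus of WT mouse 4 (401 CPM) and of Ube3aOE mouse 10 (567 CPM). The same libraries were high in thalamic markers, and WT mouse 4 stood apart there for the thalamic and habenular list (312 CPM) and for the septal list (188 CPM). Choroid plexus genes reached 1961 CPM in hippocampus of Ube3aOE mouse 7, nearly all of it *Ttr* (1896 CPM). Striatal genes stood apart in hippocampus of Ube3aOE mouse 9 (515 CPM) and of WT mouse 2 (67.4 CPM). WT mouse 2 also stood apart for neocortical genes (546 CPM) and, at the low end, for the olfactory bulb list (40.7 CPM) in hippocampus. In cortex, WT mouse 3 stood apart for the olfactory bulb list (48.4 CPM). The part of these tissues in the members' levels was not tested.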

How the results depend on the processing

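The 5 members called higher in hippocampus were so in every alternative run, with log2 differences of 1.80 to 2.23 (*Trp73*), 2.02 to 2.53 (*Lhx1*), 1.86 to 2.52 (*Lhx5*), 1.54 to 2.09 (*Ebf3*) and 3.27 to 4.40 (*Nhlh2*), and 0 members were called between the genotypes or in the interaction in any of them. With the mouse as a replicate block, 5 members were again called and 8737 genes differed between the tissues, against 7973, and the block changed no call of a member. Counts over all genes moved in 3 settings: DESeq2 called 4 genes between the genotypes in cortex, the labelled sex as a covariate, which the Y-linked counts of 2 WT mice go against, gave 2 in hippocampus, and without the 4 libraries with high *Tcf7l2*, which leaves 4 WT and 2 Ube3aOE mice, it was 0, where *Ube3a* had a log2 difference of 1.12 (adjusted P = 0.116 from edgeR).

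Differences that changed sign were uncalled, and the cause was not tested. With each mouse left out, the genotype difference in hippocampus ranged from -0.30 to 0.21 for *Reln*, -0.15 to 0.052 for *Trp73*, -0.087 to 0.30 for *Lhx1*, -0.092 to 0.37 for *Ebf3* and -0.028 to 0.51 for *Nhlh2*, and the interaction from -0.63 to 0.15 for *Ebf3*, -1.10 to 0.024 for *Nhlh2* and -0.081 to 0.12 for *Ube3a*. Without the libraries with high *Tcf7l2*, the tissue difference of *Reln* was 0.070, the genotype difference in hippocampus was 0.21 for *Reln* and -0.26 for *Nhlh2*, and the interaction of *Ube3a* was -0.20. Without hippocampus of mice 2 and 9, the genotype difference of *Reln* in hippocampus was 0.22. Without cortex of mice 8 and 9, the genotype difference in cortex was -0.17 for *Trp73*, -0.31 for *Ebf3* and -0.61 for *Nhlh2*, and the interaction was 0.13, 0.42 and 0.89. With Spearman's rho in place of Pearson's r, 2 of the 5 genes most like *Reln* and 2 of the 5 most like the other members stayed among the first 5. Low counts limited *Lhx1* and *Lhx5* in cortex.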
